A study of Mus musculus with 24 samples.

Results

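The 40 genes described here encode proteins of the mitotic machinery, from the kinases and cyclins that start mitosis to the kinetochore, the spindle and the cytokinesis apparatus. They were chosen by gene symbol as a list, and all 40 of 40 were found among the 25229 gene symbols of the deposited count table. All 40 passed the filter on low counts, which kept 12941 genes. The libraries come from ID8 P53 KO cells, a single mouse ovarian cancer cell line with a disrupted Trp53 gene, so every group, the controls included, carries the same deletion. The cells were cultured for 6 days with 1 of 4 treatments, with 6 libraries in each group. The first group received the vehicle DMSO, the second the SMARCA4 PROTAC AU-15330 at 2.5 uM, the third the DNA-crosslinking drug cisplatin at 750 nM, and the fourth, named the combination, both drugs. AU-15330 is a small molecule that brings the SWI/SNF ATPases SMARCA4 and SMARCA2 to a ubiquitin ligase and so leads to their degradation. The cisplatin concentration is that of the sample labels, and the methods of the study give another concentration for this line. In the study, cisplatin serves to induce senescence in these cells, and AU-15330 to inhibit SMARCA4 in them. The study reports that the cells proliferated less with cisplatin, with more of a senescence-associated enzyme activity and of secreted senescence factors. Those measurements were not compared with these libraries. The labels do not say whether the 6 libraries of a group came from separate cultures, so the p-values measure the spread between these libraries, which may be technical.

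Mitosis is driven by cyclin-dependent kinase and its cyclins, with Aurora and Polo kinases, while kinetochores tie the chromosomes to the spindle. The spindle assembly checkpoint holds back the anaphase-promoting complex until all chromosomes are attached, after which securin and cyclin B are destroyed and separase cuts the links between sister chromatids. Most of these genes are transcribed late in the cell cycle, which is why their transcripts serve as markers of proliferating cells. Their promoters are known for a short element, the cell cycle genes homology region (CHR), bound by the MuvB complex, which acts with B-MYB and FOXM1 in dividing cells and as part of the repressive DREAM complex in resting cells. CCAAT boxes, bound by the factor NF-Y, commonly lie just upstream of the CHR. In cells with a working p53, DNA damage lowers many of these transcripts by way of p21 and DREAM.

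The promoters of 6 members are printed because they span the responses described further on, from large rises to almost no difference. Each sequence covers the 120 bases upstream of the annotated start, read 5′ to 3′ on the strand of the gene from RefSeq sequence of the build GRCm38.p6. Capitals mark CHR letters (TTTGAA or TTCGAA, written TTCAAA where TTTGAA lies on the opposite strand) and CCAAT boxes (written ATTGG on the opposite strand). Cdk1 is at chr10:69352913-69353032 on the minus strand, Cdc20 at chr4:118437344-118437463 on the minus strand, and Ube2c at chr2:164769809-164769928 on the plus strand. Espl1 is at chr15:102296173-102296292 on the plus strand, Bub3 at chr7:131560250-131560369 on the plus strand, and Pttg1 at chr11:43425982-43426101 on the minus strand.
Cdk1: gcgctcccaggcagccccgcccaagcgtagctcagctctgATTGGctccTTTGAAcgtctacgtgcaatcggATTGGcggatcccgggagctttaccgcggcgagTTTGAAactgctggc
Cdc20: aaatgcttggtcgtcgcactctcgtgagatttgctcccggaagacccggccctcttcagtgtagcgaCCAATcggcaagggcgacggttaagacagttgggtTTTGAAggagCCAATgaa
Ube2c: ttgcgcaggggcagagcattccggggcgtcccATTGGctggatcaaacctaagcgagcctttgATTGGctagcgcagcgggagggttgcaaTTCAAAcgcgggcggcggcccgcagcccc
Espl1: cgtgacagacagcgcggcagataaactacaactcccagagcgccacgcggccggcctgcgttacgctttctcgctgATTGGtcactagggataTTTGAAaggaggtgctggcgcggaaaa
Bub3: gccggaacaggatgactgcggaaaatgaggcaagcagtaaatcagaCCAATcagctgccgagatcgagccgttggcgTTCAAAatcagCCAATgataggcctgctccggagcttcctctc
Pttg1: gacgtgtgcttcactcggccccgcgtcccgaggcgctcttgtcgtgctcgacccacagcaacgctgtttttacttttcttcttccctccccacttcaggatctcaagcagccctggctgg

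Both motifs were common in the promoters of the group. A promoter was taken as the 250 bases before and the 50 bases after the most upstream annotated start, and 33 of the 40 members were matched, the exceptions being Ccna2, Aurkb, Incenp, Spc24, Tpx2, Kif20a and Foxm1. A CHR on either strand was found in 25 of the 33 promoters (75.8%), against 13.7% of 10265 promoters of tested genes and 19.5% of all 27025 promoters. CCAAT was found in 24 of the 33 (72.7%), against 39.4% of the promoters of tested genes and 38% of all promoters. Both were present in 22 members (66.7%), against 6.03% and 7.73%. Of 86 matched promoters among the 103 other mitotic genes described further on, 51.2% held a CHR, 60.5% CCAAT and 33.7% both. Among the members, the CHR letters lay from 50 bases before to 50 bases after the start in 24 of 34 matches, and CCAAT lay in the 100 bases before the start in 40 of 58 matches. Of the 34 CHR matches, 1 shared a base with a CCAAT match. The letters TTTGAA stood on the strand of the gene in 22 of 30 matches. The members without either motif in this window were Birc5, Mad2l1, Nuf2, Nusap1, Pttg1 and Mybl2. The letters TTTAAA were searched as well but were not counted as a CHR. They were found in 9 of the 33 promoters (27.3%), among them Birc5 and Ccnb1, against 8.73% of the promoters of tested genes. These matches describe letters in a window, and no match was tested as a binding site.

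**Figure D1:**
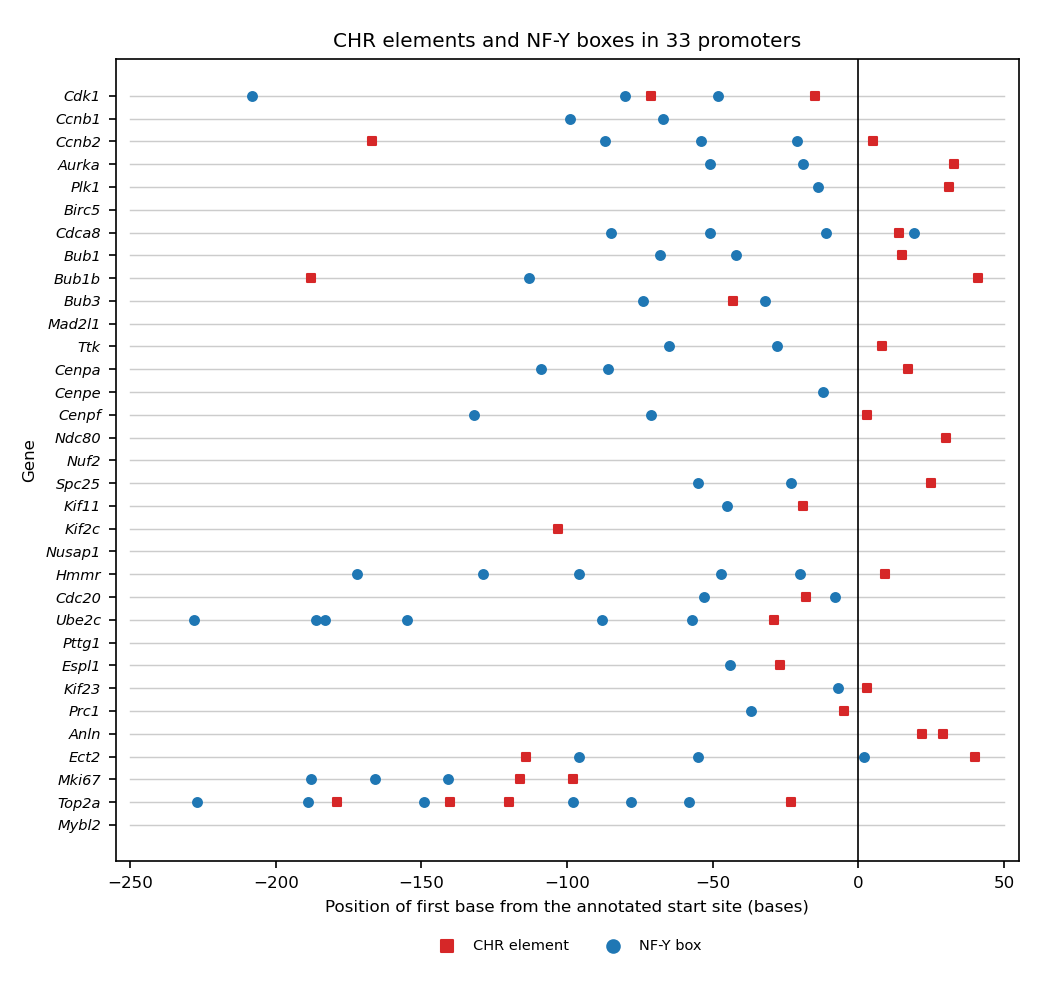
Position of CHR elements (red squares) and of CCAAT boxes, drawn as NF-Y boxes (blue circles), in the promoters of the 33 matched genes, in bases from the annotated start. Most CHR elements, 24 of 34, lie within 50 bases of the start, and most CCAAT boxes, 40 of 58, lie in the 100 bases before it.

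The libraries held 17592588 to 25260009 reads counted on genes. Levels are given as CPM, the count of a gene scaled to a common library total (the usual count-per-1e6 unit) after TMM adjustment, a scaling by edgeR that removes differences in library composition. A count of 3 corresponded to at most 0.186 CPM in the shallowest library, and the lowest count of any member in any library was 26, for Mybl2. The epithelial genes Krt8, Krt18, Wt1 and Msln, known from the ovarian surface and mesothelium, were detected in all 24 libraries. Other genes of this kind varied more, with 101 to 40703 counts for Krt19, 4 to 5639 for Upk3b and 2 to 421 for Lrrn4. Krt7 had 0 to 125 counts and was at 0 in 4 libraries. The summed level of 8 such markers was lower with AU-15330 (1066 to 1187 CPM) and with the combination (1282 to 1455 CPM) than with DMSO (3193 to 4881 CPM) and cisplatin (4114 to 4908 CPM). This sum and the marker sums below are scaled to library totals without TMM. Of the leukocyte markers, Ptprc had at most 5 counts and Cd3e at most 2 in any library, and the hemoglobin genes were at 0 in all 24. Of 3 endothelial markers, Cdh5 had at most 3 counts and Kdr at most 1, while Pecam1 had 5 to 274. Their sum was 2.61 to 4.09 CPM with DMSO, 0.267 to 0.73 with AU-15330, 8.39 to 12.2 with cisplatin and 0.497 to 1.14 with the combination, so the cisplatin libraries were the highest, without overlap. The macrophage gene Cd68 had 118 to 1110 counts and made up most of the sum of 7 leukocyte markers, which was 6.17 to 17.7 CPM with DMSO, 17.4 to 54.1 with AU-15330, 6.98 to 12.9 with cisplatin and 24.8 to 44.1 with the combination. The sum of 4 fibroblast genes, mostly Col1a1 and Dcn, was 219.7 to 597 CPM with DMSO, 115 to 179 with AU-15330, 358 to 438 with cisplatin and 202 to 304 with the combination. Reads of Trp53 were present in all 24 libraries, at 18.7 to 42.9 CPM, and with no wild-type library these values do not test the genotype. The part of these marker genes in the results was not tested.

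The share of all counts that fell on the 40 genes differed strongly between treatments. With DMSO it was 0.0641%, 0.0858% and 0.123% (lowest, median and highest library). With AU-15330 it was 0.139%, 0.155% and 0.272%, and with cisplatin 0.431%, 0.442% and 0.554%. With the combination it was 0.504%, 0.541% and 0.602%. The DMSO libraries were all below the AU-15330 libraries, which were all below both groups with cisplatin, while the cisplatin and combination groups overlapped. Because these are bulk cultures, fewer cells of a kind, such as cells in mitosis, and less RNA per cell cannot be told apart. For 30 members the group means rose in the order DMSO, AU-15330, cisplatin and combination. All 3 steps of this order were called in 6 of the 30. In 22 the step from cisplatin to the combination was not called, and in 2 only the middle step was called. Cisplatin exceeded the combination in 7 of the other members, which otherwise kept this order, and Mad2l1, Bub3 and Pttg1 each had an order of their own.

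**Figure D2:**
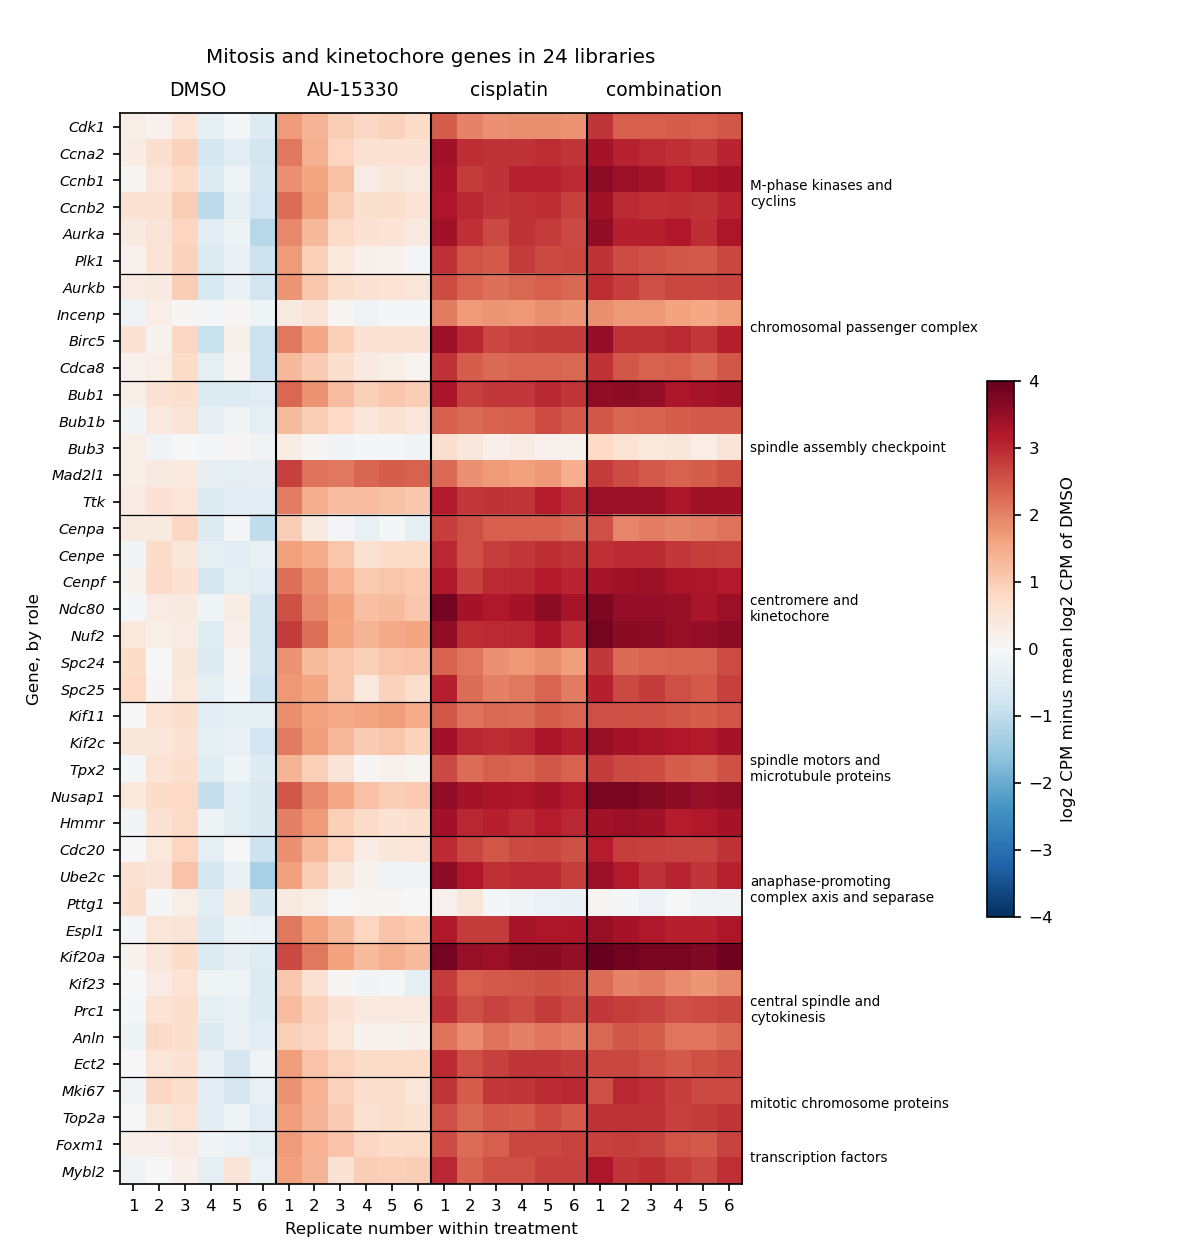
Level of each gene (rows, grouped by role) in each library (columns, by treatment and replicate number), as log2 CPM minus the gene's mean log2 CPM over the DMSO libraries. Red is above and blue below the DMSO mean. Nearly all rows are red with cisplatin and with the combination, paler with AU-15330, and the rows of Bub3 and Pttg1 are pale throughout.

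The DMSO libraries themselves were not alike in these genes. The mean log2 CPM of the 40 members was 4.09, 4.31 and 4.51 in DMSO replicates 1 to 3 and 3.45, 3.72 and 3.34 in replicates 4 to 6. In 31 members the first 3 of these libraries were all above the other 3, and in 0 members below, while among all tested genes 11.6% were above and 10.2% below. With AU-15330 the same division was seen in 32 members, against 16.2% of tested genes. With the combination it was seen in 15 members, against 9.02%, and with cisplatin in 1 member, against 13.4%. The opposite division was seen in 3 members with cisplatin, against 17.5% of tested genes. It was seen in 0 members with AU-15330, against 16.3%, and in 0 with the combination, against 9.94%. The library of replicate 1 was the highest of its group in 39 members with AU-15330, in 34 with cisplatin and in 30 with the combination. With DMSO it was the highest in 5 members, and replicate 3 was the highest in 28. The corresponding shares of all tested genes were not counted. Over all tested genes the replicate 1 libraries of different treatments deviated together, with r from 0.217 to 0.483. The labels do not say what the replicate numbers stand for. The spread between libraries was also wider in relative terms in the groups without cisplatin, with a median coefficient of variation over members of 37.0% with DMSO and 36.1% with AU-15330 against 12.4% with cisplatin and 10.2% with the combination.

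**Figure D3:**
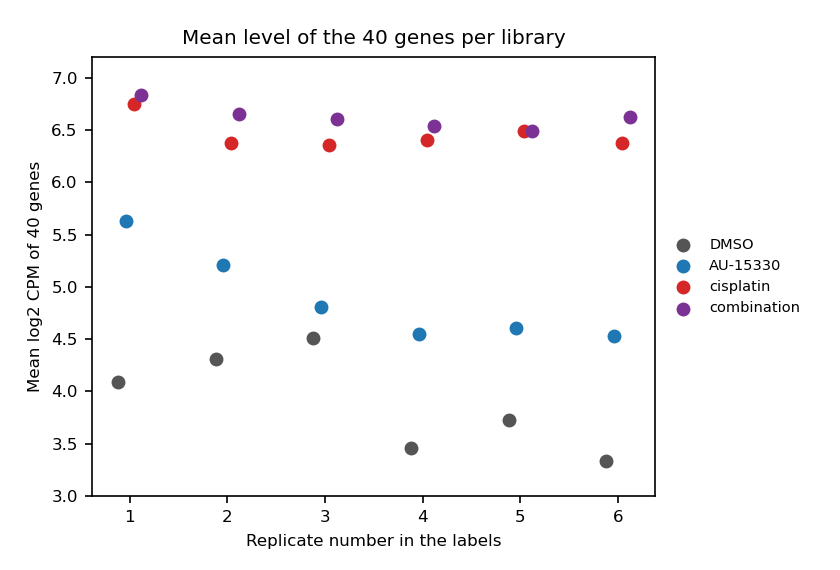
Mean log2 CPM of the 40 genes in each library against the replicate number of the labels, coloured by treatment. The DMSO libraries 1 to 3 (4.09 to 4.51) lie above libraries 4 to 6 (3.34 to 3.72), AU-15330 library 1 (5.63) stands highest in its group, and the groups with cisplatin lie between 6.35 and 6.84.

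The first comparison asks how mitotic genes differed between cells kept in cisplatin and cells kept in DMSO. With cisplatin, 39 of the 40 genes rose and 0 fell, by edgeR's quasi-likelihood test at a Benjamini-Hochberg adjusted p under 0.05 over all tested genes. The remaining gene was Pttg1, which encodes securin. Among all tested genes, 51.7% were called in this comparison, 26.0% higher and 25.7% lower. Of these calls 50.2% were higher, or 61.1% when library totals were used in place of TMM. The median log2 fold change of the 40 was 2.64, against -0.0041 over all tested genes. In 38 members every cisplatin library was above every DMSO library, which was so for 14.2% of tested genes, and the exceptions were Bub3 and Pttg1. The reverse was seen in 0 members and in 9.78% of tested genes. A count of 39 higher and 0 lower was obtained in each of the fits that left out a replicate number. The median log2 fold change was 2.28 within replicate numbers 1 to 3 (38 members higher) and 3.11 within numbers 4 to 6 (39 higher), a division chosen after the levels of the libraries had been seen. In this comparison, and for AU-15330 against DMSO, the combination against AU-15330 and the interaction, the count of members in the opposite direction was also 0 at an unadjusted p under 0.05 and with DESeq2.

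Among the kinases and cyclins that start mitosis, all 6 rose with cisplatin. Cdk1, the catalytic subunit of the mitotic kinase, had 20.3, 30.5 and 43.1 CPM with DMSO (lowest, median and highest, as in all such triplets here) and 101, 107 and 155 CPM with cisplatin. No cisplatin library reached down to the DMSO range. This was a log2 fold change of 1.93 (standard error, SE, 0.17, adjusted p = 6.74e-10 by edgeR), the smallest of the 6. Ccnb1, cyclin B1, had 4.28, 6.61 and 11.4 CPM with DMSO and 46.8, 54.6 and 65.8 CPM with cisplatin, a log2 fold change of 2.94 (SE 0.24, adjusted p = 1.66e-10). It was the largest of the 6. Ccna2 (cyclin A2), Ccnb2 (cyclin B2), Aurka (Aurora A) and Plk1 (Polo-like kinase 1) lay between, with log2 fold changes of 2.85, 2.77, 2.76 and 2.54.

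The 4 genes of the chromosomal passenger complex, which corrects faulty chromosome attachments and later directs cytokinesis, all rose with cisplatin. Incenp, its scaffold, had 46.9, 52.7 and 62.9 CPM with DMSO and 171, 179.6 and 221 CPM with cisplatin. Its log2 fold change was 1.82 (SE 0.10, adjusted p = 1.13e-13), the smallest of the 4, with the narrowest spread among DMSO libraries of any member (a coefficient of variation of 11.2%, against a median of 37.0% over members). Birc5, survivin, had 4.34, 9.06 and 14.5 CPM with DMSO and 51.1, 55.8 and 86.0 CPM with cisplatin, and a log2 fold change of 2.79 (SE 0.28, adjusted p = 6.14e-09). The values of Aurkb, the Aurora B kinase of the complex, and Cdca8, borealin, were 2.23 and 2.35.

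Of the spindle assembly checkpoint genes, all 5 rose, but by very different amounts. Ttk, the kinase MPS1 that starts checkpoint signaling, had 2.73, 3.88 and 5.80 CPM with DMSO and 27.7, 29.3 and 34.9 CPM with cisplatin, a log2 fold change of 2.90 (SE 0.17, adjusted p = 4.01e-13). Bub3, which recruits other checkpoint proteins to the kinetochore and also has functions outside mitosis, had 97.3, 106 and 130.4 CPM with DMSO and 119.99, 128 and 169 CPM with cisplatin. The ranges overlapped, and the log2 fold change was only 0.33 (SE 0.097, adjusted p = 0.00667), a call that was lost when only replicate numbers 1 to 3 were used and when a fold change above 1.5 was required. Bub1 and Bub1b (BUBR1), kinase-family proteins of the checkpoint, had log2 fold changes of 2.84 and 2.36, and Mad2l1 (MAD2), which binds and holds CDC20, had 1.76.

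All 7 centromere and kinetochore genes rose with cisplatin. Ndc80, the microtubule-binding subunit of the complex of the same name, went from 2.84, 5.11 and 5.98 CPM with DMSO to 43.2, 46.7 and 66.7 CPM with cisplatin, a log2 fold change of 3.39 (SE 0.21, adjusted p = 1.01e-12). Its partners within that complex had log2 fold changes of 3.08 for Nuf2, 2.29 for Spc25 and 1.87 for Spc24. Spc24 had 8.04, 13.6 and 22.3 CPM with DMSO and 42.2, 48.0 and 68.9 CPM with cisplatin. Cenpf, a large protein of the outer kinetochore, had 9.31, 14.1 and 25.6 CPM with DMSO and 99.0, 123 and 139 CPM with cisplatin, and a log2 fold change of 2.94 (SE 0.22, adjusted p = 2.15e-11). The kinetochore motor gene Cenpe had 2.77, and Cenpa, the histone variant that marks centromeres, had 2.36.

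Spindle motors and microtubule proteins rose in 5 of 5 cases. Nusap1, which binds and bundles spindle microtubules, had 3.49, 6.76 and 11.5 CPM with DMSO and 58.6, 64.4 and 76.5 CPM with cisplatin, a log2 fold change of 3.16 (SE 0.26, adjusted p = 1.23e-10). Kif11, the motor Eg5 that pushes the spindle poles apart, had 26.6, 31.4 and 56.3 CPM with DMSO and 161, 177 and 202 CPM with cisplatin, a log2 fold change of 2.25 (SE 0.15, adjusted p = 1.91e-12). Kif11 was the smallest rise of these 5. Tpx2, an activator of Aurora A on the spindle, had 37.1, 48.7 and 83.4 CPM with DMSO and 247, 273 and 328 CPM with cisplatin, a log2 fold change of 2.34. Kif2c, a kinesin that shortens microtubules, and Hmmr, a spindle protein first known as a hyaluronan receptor, had log2 fold changes of 3.04 and 3.01.

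The genes around the anaphase-promoting complex were divided. Espl1, separase, rose from 5.19, 6.85 and 10.7 CPM with DMSO to 52.0, 70.3 and 73.2 CPM with cisplatin, a log2 fold change of 3.07 (SE 0.19, adjusted p = 6.64e-13). Ube2c, the ubiquitin-conjugating enzyme of the complex, and Cdc20, its activator, also rose, with log2 fold changes of 2.87 and 2.57. Pttg1, whose product securin inhibits separase, had 31.9, 52.3 and 76.9 CPM with DMSO and 41.5, 46.9 and 68.1 CPM with cisplatin. The cisplatin libraries lay inside the DMSO range, and the log2 fold change was -0.041 (95% confidence interval -0.36 to 0.28, adjusted p = 0.844).

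In the central spindle and cytokinesis group all 5 genes rose. Kif20a, a kinesin of the central spindle, had the largest change of all members, from 11.3, 15.5 and 27.6 CPM with DMSO to 176, 192 and 232 CPM with cisplatin, a log2 fold change of 3.49 or 11.2-fold (SE 0.23, adjusted p = 1.91e-12). Anln, anillin, which organizes the contractile ring, had 36.9, 44.9 and 90.8 CPM with DMSO and 195, 227 and 241 CPM with cisplatin, a log2 fold change of 1.98 (SE 0.19, adjusted p = 2.97e-09). Prc1, the microtubule bundler of the central spindle, had 2.63, Ect2, the RhoA activator that starts the cleavage furrow, 2.74, and Kif23, the motor of centralspindlin, 2.48 on the log2 fold scale.

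Both genes of mitotic chromosomes rose. Mki67, which encodes the proliferation marker Ki-67 on the surface of mitotic chromosomes, had 30.2, 40.05 and 83.2 CPM with DMSO and 249.9, 338 and 375 CPM with cisplatin, a log2 fold change of 2.72 (SE 0.24, adjusted p = 5.03e-10). Top2a, topoisomerase IIα, had 71.3, 91.9 and 139.9 CPM with DMSO and 471, 529 and 588 CPM with cisplatin, a log2 fold change of 2.42 (SE 0.18, adjusted p = 1.49e-11). The transcription factors Foxm1 and Mybl2, which act on late cell cycle promoters, rose as well. Foxm1 had 16.5, 22.3 and 27.1 CPM with DMSO and 102, 135 and 140.1 CPM with cisplatin, a log2 fold change of 2.54 (SE 0.15, adjusted p = 3.61e-13). Mybl2, B-MYB, had 1.39, 1.71 and 2.53 CPM with DMSO and 9.09, 11.3 and 14.5 CPM with cisplatin, a log2 fold change of 2.65 (SE 0.17, adjusted p = 1.37e-12).

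Members with and without the promoter motifs both rose. The 22 members with both motifs had a median log2 fold change of 2.60 between cisplatin and DMSO, the 5 with a single kind of motif 2.94, and the 6 with neither 2.72. Bub3, the member with the smallest rise that was called, holds both motifs in the sequence printed above, whereas Pttg1 holds neither. Nusap1 and Nuf2, with large rises, also hold neither in this window.

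**Figure D4:**
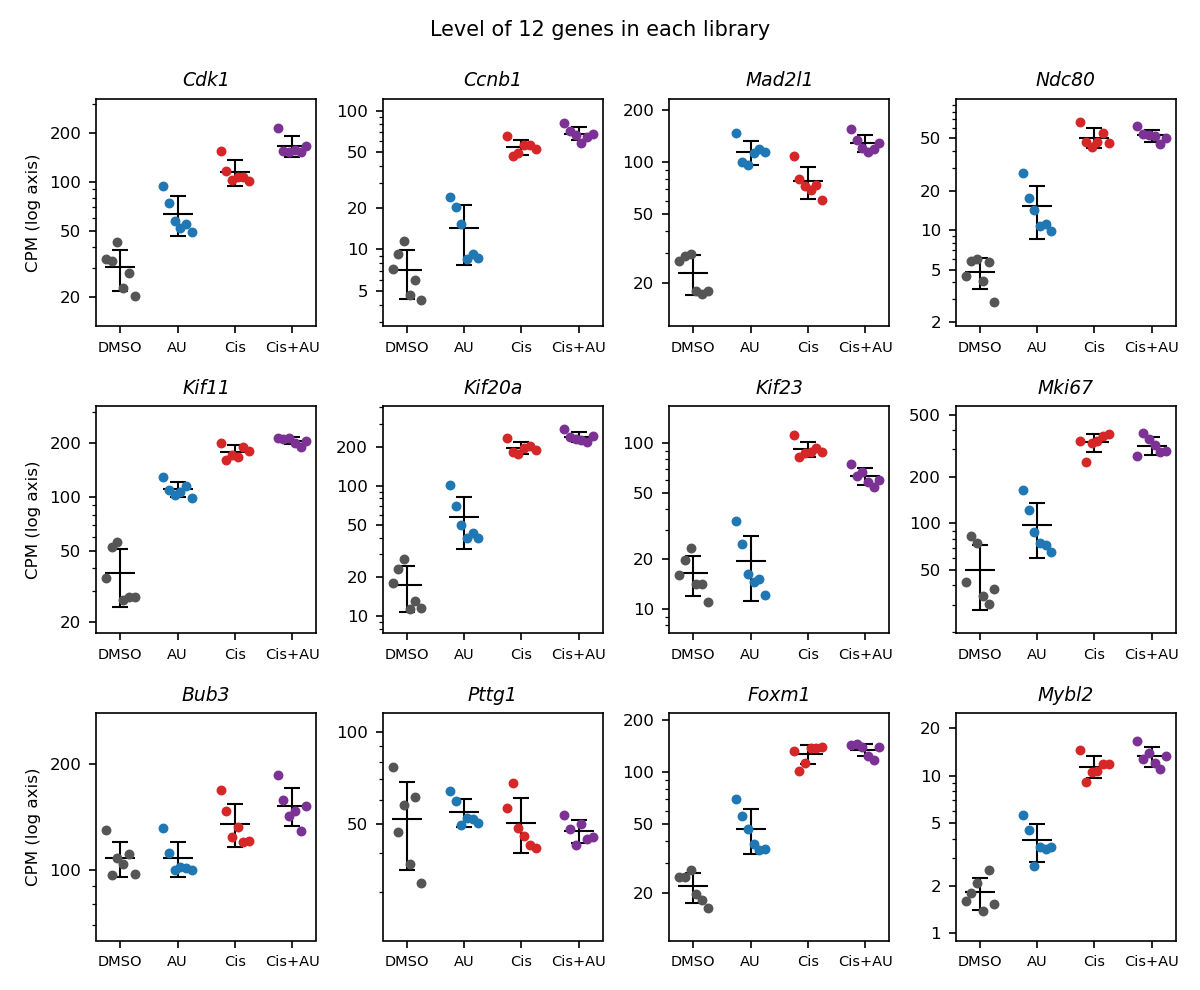
CPM of 12 genes in each library on log axes (DMSO grey, AU-15330 blue, cisplatin red, both drugs purple), each point a library and the bars the mean and SD of 6. Cdk1 lies at 20.3 to 43.1 CPM with DMSO and 101 to 155 CPM with cisplatin, Mad2l1 is higher with AU-15330 than with cisplatin in most libraries, and Pttg1 overlaps between all 4 groups.

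Most of the genes were also higher with AU-15330 alone, by less than with cisplatin. Relative to DMSO, 33 of the 40 members rose and 0 fell, with a median log2 fold change of 1.02 against -0.0030 over all tested genes. In this comparison 73.4% of tested genes were called, 36.2% higher and 37.2% lower, so calls were common in both directions. In 17 members every AU-15330 library was above every DMSO library, against 24.5% of tested genes. The 7 members that were not called were Incenp, Bub3, Cenpa, Ube2c, Pttg1, Kif23 and Anln. Without replicate 1, whose AU-15330 library was the highest of its group in 39 of 40 members, 30 members rose, and Plk1, Cdca8 and Tpx2 were no longer called. Plk1, with a log2 fold change of 0.58 (adjusted p = 0.0473), also missed the threshold with DESeq2 (adjusted p = 0.0604).

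The largest rise with AU-15330 was that of Mad2l1, a member singled out here after its values were seen. It had 17.2, 22.3 and 29.6 CPM with DMSO and 96.3, 114 and 148 CPM with AU-15330, a log2 fold change of 2.32 or 5.01-fold (SE 0.15, adjusted p = 2.42e-13 by edgeR). All 6 AU-15330 libraries were above all DMSO libraries. With cisplatin Mad2l1 had 60.8, 73.7 and 108 CPM, so it was the member that was higher with AU-15330 than with cisplatin (log2 fold change 0.57, adjusted p = 0.000844), while 38 members were lower and Pttg1 was not called. Among all tested genes 73.1% were called between AU-15330 and cisplatin, 35.8% higher and 37.3% lower. All AU-15330 libraries lay below all cisplatin libraries in 36 members, against 29.7% of tested genes. The call of Mad2l1 was lost within replicate numbers 1 to 3 and with a required fold above 1.5.

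Nuf2, Kif20a, Ndc80 and Kif11 followed Mad2l1 in size. Nuf2 rose by 1.88 and Ndc80 by 1.66 on the log2 scale, the latter with 9.86, 12.7 and 27.4 CPM in the AU-15330 libraries, all above the DMSO range. Kif20a had 39.6, 46.8 and 102 CPM with AU-15330 and a log2 fold change of 1.72 (SE 0.22, adjusted p = 8.28e-08). Kif11 had 99.4, 108 and 129.9 CPM and a log2 fold change of 1.55 (SE 0.14, adjusted p = 3.43e-10), with the narrowest spread of any member in this group (coefficient of variation 9.84%). The remaining kinetochore genes of the list were Spc24 (1.18), Spc25 (1.07), Cenpf (1.41) and Cenpe (1.04), all called higher, and Cenpa, with a log2 fold change of 0.066 (adjusted p = 0.806).

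The kinases and cyclins all rose with AU-15330. Cdk1 had 49.8, 56.5 and 95.2 CPM, all above the DMSO libraries, and a log2 fold change of 1.09 (SE 0.17, adjusted p = 2.3e-06). Ccnb1 had 8.49, 12.2 and 23.9 CPM, a range that overlapped with DMSO, and a log2 fold change of 1.01 (SE 0.24, adjusted p = 0.000531). In the chromosomal passenger complex Birc5, Aurkb and Cdca8 were called, with log2 fold changes of 1.06, 0.81 and 0.59. Their scaffold Incenp was not called, at 47.5, 53.4 and 75.1 CPM and a log2 fold change of 0.13 (95% confidence interval -0.074 to 0.34). Among checkpoint genes Bub1, Ttk and Bub1b rose by 1.396, 1.34 and 0.76 on the log2 scale. Bub3 had a log2 fold change of -0.0005 (95% confidence interval -0.20 to 0.20).

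Of the other roles, Espl1 and Cdc20 rose by 1.35 and 0.89 with AU-15330, while Ube2c, at 0.44, and Pttg1, at 0.075, were not called. Nusap1, Kif2c, Hmmr and Tpx2 rose by 1.49, 1.33, 1.14 and 0.54. In the cytokinesis group Ect2 and Prc1 rose by 0.97 and 0.61, whereas Anln (0.40, adjusted p = 0.0574) and Kif23 (0.25, adjusted p = 0.251) did not pass the test. Anln was called when library totals were used in place of TMM. Mki67 and Top2a rose by 0.95 and 1.00, and Foxm1 and Mybl2 by 1.11 and 1.10. Mki67 had 65.5, 81.4 and 163 CPM with AU-15330 and overlapped with DMSO, while Foxm1 had 35.6, 42.7 and 70.1 CPM and did not.

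The study's central comparison adds AU-15330 to cisplatin. Of the 40 members, 7 were higher with the combination than with cisplatin alone, 1 was lower and 32 did not pass the test. This was few beside the whole transcriptome, in which 68.1% of tested genes were called in this comparison, 35.4% higher and 32.7% lower. The median log2 fold change of the members was 0.17, against 0.039 over all tested genes. The count of higher members depended on the libraries and the fit. It fell to 3 without replicate 2 and without replicate 3 and to 4 without replicate 6, was 16 (with 3 lower) when only the 12 libraries of both groups were fitted, and was 0 when a fold change above 1.5 was required. It was 3 (and 0 lower) within replicate numbers 1 to 3 and 12 (and 5 lower) within numbers 4 to 6. Of all tested genes, 65.5%, 63.7% and 64.2% were called in either direction without replicates 2, 3 and 6. The share was 70.4% with only both groups fitted and 29.4% with the required fold. Within numbers 1 to 3 it was 52%, and within numbers 4 to 6 68.9%.

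Mad2l1 showed the largest rise, from 60.8, 73.7 and 108 CPM with cisplatin to 115, 125 and 155 CPM with the combination, with no overlap (log2 fold change 0.73, SE 0.14, adjusted p = 5.67e-05 by edgeR). Cdk1 went from 101, 107 and 155 to 153, 155 and 214 CPM, ranges that overlapped through cisplatin replicate 1, with a log2 fold change of 0.53 (SE 0.16, adjusted p = 0.00577). Ttk went from 27.7, 29.3 and 34.9 to 36.8, 41.1 and 42.6 CPM without overlap, a log2 fold change of 0.41 (adjusted p = 0.0194). Checkpoint genes made up 3 of the 7, the third being Bub1 (log2 fold change 0.50, adjusted p = 0.0293). The others were Spc24 (0.52), Nuf2 (0.47) and Top2a (0.38). Top2a, at 641, 707 and 718 CPM with the combination, did not overlap with cisplatin, although its adjusted p of 0.0482 was above 0.05 in every fit that left out a replicate number.

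Kif23, also singled out after its values were seen, was the member that fell. It had 82.8, 88.6 and 111 CPM with cisplatin and 54.5, 62.1 and 75.2 CPM with the combination, with no overlap, a log2 fold change of -0.54 (SE 0.18, adjusted p = 0.0101). For comparison it had 11.02, 15.2 and 23.4 CPM with DMSO and 12.3, 15.8 and 33.8 CPM with AU-15330, so the combination was well above both. Among all tested genes 25.5% had every combination library below every cisplatin library and 24.7% above. For many other members the estimates were close to 0. Bub1b had a log2 fold change of 0.008 (95% confidence interval -0.27 to 0.28), Foxm1 0.084 (-0.20 to 0.37), Incenp -0.13 (-0.33 to 0.073) and Mki67 -0.071 (-0.53 to 0.38).

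**Figure D5:**
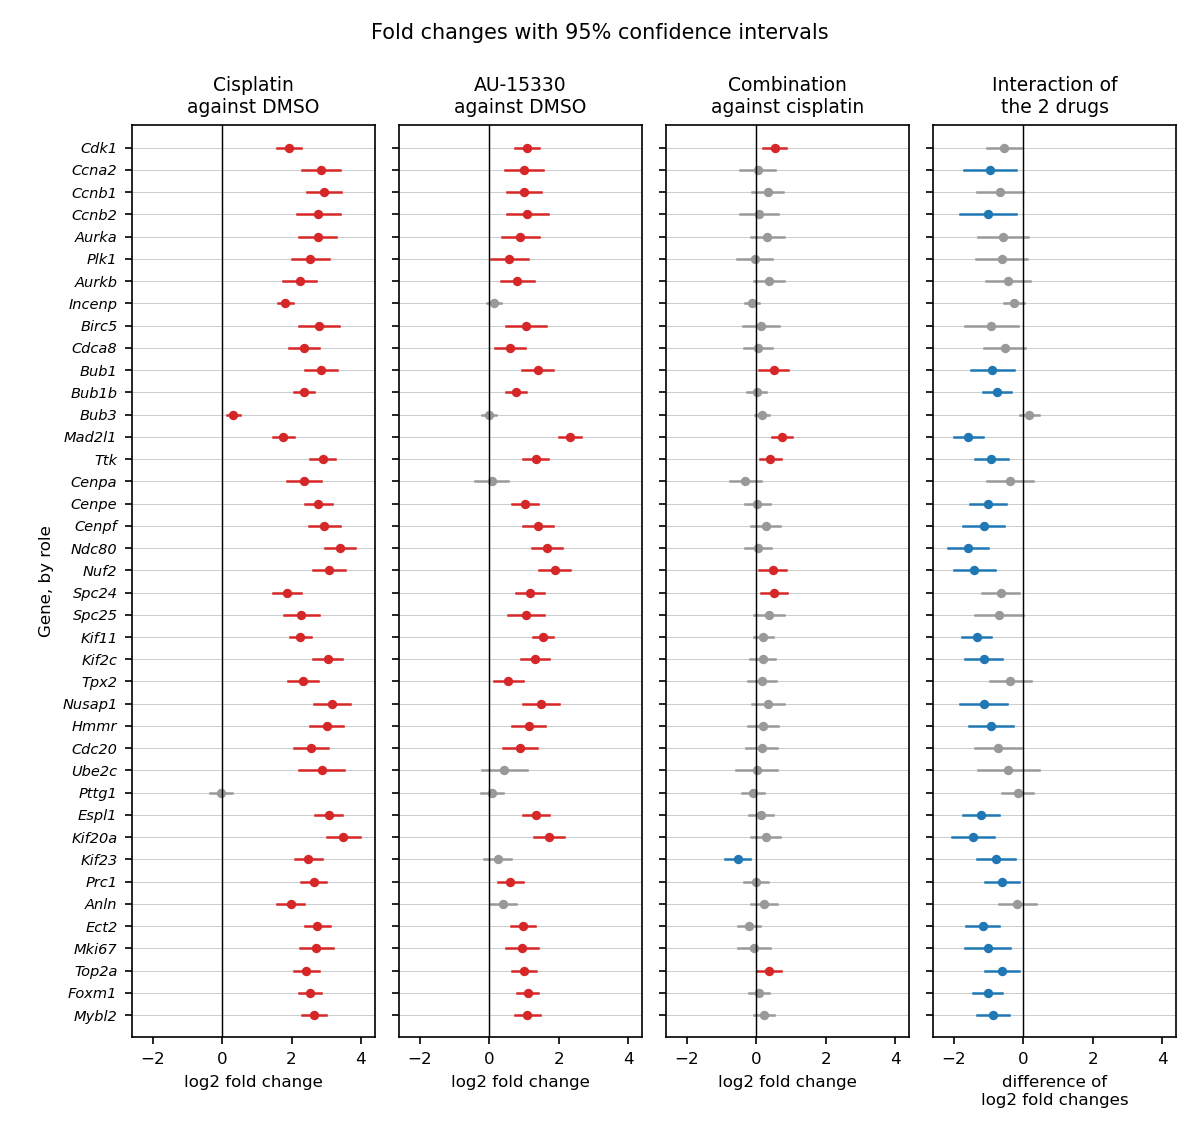
Log2 fold change (points) with 95% confidence interval (lines) of each gene in 3 comparisons, and the interaction of the drugs as a difference of log2 fold changes. Red marks genes called higher, blue genes called lower and grey genes not called, which come to 39, 0 and 1 with cisplatin, 33, 0 and 7 with AU-15330, 7, 1 and 32 for the combination against cisplatin and 0, 23 and 17 for the interaction.

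The members were also higher with cisplatin in the presence of AU-15330. With the combination against AU-15330 alone, 38 members rose and 0 fell, with a median log2 fold change of 1.80, and 41.7% of tested genes were called (22.2% higher and 19.5% lower). Mad2l1 (0.17, adjusted p = 0.361) and Pttg1 (-0.21, adjusted p = 0.298) were not called. In 37 members all combination libraries were above all AU-15330 libraries, against 16% of tested genes. The largest difference was that of Ube2c, with a log2 fold change of 2.44 (SE 0.31, adjusted p = 6.05e-07). Against DMSO, the combination gave 39 higher members and Pttg1 not called, with a median log2 fold change of 2.69, beside 73.3% of tested genes called (36.8% higher and 36.5% lower). Kif20a was again the largest, with 216, 234 and 273 CPM in the combination and a log2 fold change of 3.77 (SE 0.23, adjusted p = 8.17e-14). These comparisons share their control or treated libraries with those above and are not independent of them.

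The interaction term asks whether the effect of AU-15330 on the log2 scale was the same with cisplatin as without it. It was negative and called in 23 members and positive and called in 0, with a median of -0.83 against 0.0065 over all tested genes. Among tested genes 33.7% were called for the interaction, 17.9% positive and 15.8% negative. Of these calls 53.0% were positive, or 41.7% when library totals were used in place of TMM. The strongest values were those of Ndc80 (-1.60, SE 0.28, adjusted p = 9.32e-05), Mad2l1 (-1.59, SE 0.20, adjusted p = 1.37e-06) and Kif20a (-1.45, SE 0.29, adjusted p = 0.000474). For Ndc80, the log2 fold change of AU-15330 was 1.66 without cisplatin and 0.059 with it. For Mad2l1 the corresponding values were 2.32 and 0.73, and for Kif20a 1.72 and 0.27.

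By role, the interaction was called in 4 of 5 checkpoint genes, 4 of 7 centromere and kinetochore genes, 4 of 5 spindle genes and 4 of 5 cytokinesis genes. It was called in 2 of 6 kinases and cyclins, 0 of 4 genes of the chromosomal passenger complex, 1 of 4 genes around the anaphase-promoting complex, both chromosome proteins and both transcription factors. Foxm1 and Mybl2 had interaction values of -1.03 and -0.88. The genes Incenp, Bub3, Cenpa, Ube2c, Pttg1 and Anln, which were not called with AU-15330 alone, were also not called here, and Kif23, at -0.79, was called. The number of called members was 16 without replicate 1, 26 without replicate 3, 13 within replicate numbers 1 to 3 and 34 within numbers 4 to 6. It was 7 when an interaction beyond 1.5-fold was required. In these 5 fits, in the same order, 35.7%, 26.2%, 13.1%, 37% and 7.16% of all tested genes were called in either direction.

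Beyond the 40 members, 103 other genes with roles in mitosis were followed. With cisplatin 89 of them rose, 3 fell and 11 did not pass the test, with a median log2 fold change of 1.98, where 26.0% of all tested genes were higher and 25.7% lower. With AU-15330 alone 68 rose and 13 fell (median 0.70), where 36.2% of tested genes were higher and 37.2% lower. The count of 13 was 8 without replicate 3, 17 without replicate 1 and 7 when library totals were used in place of TMM. In the combination against cisplatin 38 of the 103 rose and 10 fell (median 0.21), and the share that rose was close to the 35.4% of tested genes called higher, while 32.7% were called lower. The interaction was negative and called in 42 of the 103 and positive in 7, against 15.8% and 17.9% of tested genes. The largest rise with cisplatin was that of Cdca5, sororin, which holds sister chromatids together, at 3.23 on the log2 scale (adjusted p = 2.32e-13), and the lowest value was that of Mad2l2, a subunit of translesion polymerase that also binds the anaphase-promoting complex, at -0.40 (adjusted p = 0.000747). With AU-15330 the extremes were Cenpp, a subunit of the inner kinetochore, at 5.19 (adjusted p = 4.06e-19), and Cdc25b, a phosphatase that activates the mitotic kinase, at -2.89 (adjusted p = 1.72e-15). The level of Cdc25b was 84.5 ± 5.11 CPM (SD, n = 6) in DMSO libraries and 11.3 ± 4.17 CPM (SD, n = 6) in AU-15330 libraries.

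Most of the followed genes of DNA replication also rose with cisplatin. Of 44 such genes, 41 rose with cisplatin and 0 fell (median log2 fold change 1.34), beside the same 26.0% higher and 25.7% lower of tested genes. With AU-15330 32 rose and 3 fell (median 0.50), beside 36.2% and 37.2%. With the combination against cisplatin 31 rose and 1 fell (median 0.51), where 35.4% of tested genes were called higher and 32.7% lower. The difference between these genes and the 40 mitotic members was not tested. Orc1, a subunit of the origin recognition complex, had the largest rise with cisplatin (3.21, adjusted p = 9.79e-13) and Pold2, a subunit of DNA polymerase delta, the smallest value (-0.13, adjusted p = 0.298). With AU-15330, Gins2, of the replicative helicase, rose by 1.97 and Rrm1, the large subunit of ribonucleotide reductase, fell, with a log2 fold change of -0.78 (adjusted p = 2.89e-05). The interaction was negative and called in 14 of the 44 and positive in 4, beside 15.8% and 17.9% of tested genes.

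Regulators that act on late cell cycle promoters were called in both directions. Of 22 genes of the E2F, DP, pocket protein, MuvB and NF-Y families and Mybl1, 11 rose and 3 fell with cisplatin (median log2 fold change 0.22), where 26.0% of all tested genes were higher and 25.7% lower. With AU-15330 12 rose and 5 fell (median 0.31), where 36.2% were higher and 37.2% lower. E2f8, an E2F that represses transcription, rose most in both, by 2.63 with cisplatin and 1.70 with AU-15330 (adjusted p = 4.85e-10 and 3.17e-07). E2f5, a partner of the DREAM pocket proteins, was lowest with cisplatin at -0.57 (adjusted p = 6.15e-05), and Tfdp2, a dimerization partner of E2F proteins, was lowest with AU-15330 at -1.14 (adjusted p = 2.63e-11). With the combination against cisplatin, 8 rose and 2 fell, and the share that rose was again close to the 35.4% of all tested genes called higher, while 32.7% were called lower.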

How the data were processed

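Polyadenylated RNA from ID8 P53 KO cells was sequenced in 24 libraries, 6 for each of 4 treatments. The submitters' processing notes name STAR 2.7.1a, DESeq2 1.36.0 and the mm10 build, while the counting tool, its use of strand and the annotation are not given in the sources used here. The values the authors deposited are raw read counts per gene symbol in 48 columns, of which 0 were left unmatched. The 2 lanes of each library were summed, since they differed far less (a chi-square of 1.36 to 1.46 for each degree of freedom) than replicates did (at least 2.30). The study names a directional library kit. Because the use of strand in the counting is not given, it is not known whether reads of overlapping genes were told apart.

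Counts were analysed with edgeR 4.0.16 in R 4.3.3 (filterByExpr, TMM, a mean per group, quasi-likelihood F test, 24 libraries, 20 residual degrees of freedom), with Benjamini-Hochberg adjustment over 12941 genes and a threshold of 0.05. CPM values carry no pseudocount, and a prior count of 2 was added for log2 CPM. The procedure was also run on simulated counts in which few genes were changed, and in 1 group only. Many more genes were called in these data, so that run does not test the procedure under like conditions. The 40 members, the other gene lists, their roles and the tests were chosen with earlier results of these data known. Within each role, levels are given for the member with the highest mean level and those with the largest and smallest change with cisplatin, and from the other lists the largest and smallest change with either drug. Promoters were searched in RefSeq sequences of GRCm38.p6, the most upstream start per gene. Alternatives were DESeq2 1.42.0, other scalings, no filter, a required fold of 1.5, a replicate block, fits of the compared groups alone, each replicate left out, and replicate numbers 1 to 3 or 4 to 6 alone, the last chosen after seeing the data. Other measurements of the study were not analysed here.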

Additional observations from a re-analysis of the deposited data

Results flagged for a closer look

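In each group of 6 libraries, the gap between the most distant library and its neighbor was divided by the range of the group, and a share above 0.625 (Dixon's 95% value for 6) was marked. Of 160 combinations of gene and treatment, 17 were marked, where chance alone marks about 1 in 20, or 8, and the 40 genes of a library are not independent of each other. In 16 of the 17 the library that stood apart was replicate 1, each time as the highest. With cisplatin the shares were Cdk1 0.708, Ccna2 0.807, Aurka 0.662, Cdca8 0.761, Spc25 0.796 and Cdc20 0.654, with AU-15330 they were Aurkb 0.638, Bub3 0.628, Ttk 0.706, Spc24 0.677 and Ect2 0.626, and with the combination they were Cdk1 0.796, Ccnb2 0.73, Birc5 0.642, Cdca8 0.663 and Cenpa 0.712. The remaining case was Mki67 with cisplatin, where replicate 2 was the lowest of its group (share 0.634). No DMSO library was marked, although DMSO replicates 1 to 3 lay above replicates 4 to 6 in 31 members. With replicate 1 left out, 39 members were higher in cisplatin than in DMSO, 30 in AU-15330 than in DMSO and 7 in the combination than in cisplatin, while 16 had a negative called interaction. Of all tested genes, 52.7%, 74.8%, 69.2% and 35.7% were called in either direction there.

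The effect of AU-15330 differed between cells with and without cisplatin in 23 members, by the interaction term of the edgeR fit. The interaction, as the log2 fold change of AU-15330 with cisplatin minus that without it, was Ccna2 -0.96, Ccnb2 -1.01, Bub1 -0.89, Bub1b -0.76, Mad2l1 -1.59, Ttk -0.93, Cenpe -1.01, Cenpf -1.14, Ndc80 -1.60, Nuf2 -1.41, Kif11 -1.35, Kif2c -1.15. For the other members it was Nusap1 -1.15, Hmmr -0.93, Espl1 -1.22, Kif20a -1.45, Kif23 -0.79, Prc1 -0.62, Ect2 -1.18, Mki67 -1.02, Top2a -0.63, Foxm1 -1.03 and Mybl2 -0.88. All 23 were negative, and the adjusted p-values ran from 1.37e-06 for Mad2l1 to 0.0488 for Ccnb2.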

How the results depend on the processing

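Cisplatin against DMSO called 39 members higher and 0 lower with each replicate number left out, and the combination against DMSO did the same with 39. With 1 number left out, the combination against cisplatin called 3 to 7 members higher, with 3 without replicate 2, 3 without replicate 3 and 4 without replicate 6, and the other mitotic genes called lower in AU-15330 against DMSO numbered 8 to 17, with 8 without replicate 3 (13 with all libraries). A required fold above 1.5 left 1789 of all tested genes called in cisplatin against DMSO (6689 without it), 4657 in AU-15330 against DMSO (9497), 3803 in the combination against cisplatin (8813), 842 in the combination against AU-15330 (5394), 4683 in the combination against DMSO (9486), 4723 in AU-15330 against cisplatin (9456) and 926 in the interaction (4361). With that requirement the combination against cisplatin called 0 members higher and 0 lower, AU-15330 against cisplatin called 0 higher, and the interaction called 7 negative. Of the other mitotic genes it called 0 lower in cisplatin against DMSO, 44 higher and 4 lower in AU-15330 against DMSO, 5 higher and 3 lower in the combination against cisplatin, 0 lower in the combination against AU-15330, 2 lower in the combination against DMSO, 3 higher in AU-15330 against cisplatin, and 1 positive and 11 negative in the interaction. These counts are smaller because the requirement is stricter. Fits of only the compared groups called 16 members higher and 3 lower in the combination against cisplatin, 1 member (Pttg1) lower in the combination against AU-15330, and 17 other mitotic genes lower in the combination against cisplatin. Those fits called 70.4% of all tested genes in the combination against cisplatin and 54.5% in the combination against AU-15330.

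Both settings on replicate numbers were chosen after seeing the data and use fewer samples. Replicates 1 to 3 alone gave a median member log2 fold change of 2.28 for cisplatin against DMSO, and replicates 4 to 6 alone gave 3.11, with 3.09 for the combination against DMSO and -2.11 for AU-15330 against cisplatin. From replicates 1 to 3, 4361 genes were called in cisplatin against DMSO, 2817 in the combination against AU-15330 and 1701 in the interaction. They gave 3 members higher and 0 lower in the combination against cisplatin, 0 higher in AU-15330 against cisplatin and 13 negative in the interaction, with 24 other mitotic genes higher in the combination against cisplatin and 3 positive and 25 negative in the interaction. Replicates 4 to 6 gave 12 members higher and 5 lower, and 21 other mitotic genes lower, in the combination against cisplatin. In that comparison 52% of all tested genes were called from replicates 1 to 3 and 68.9% from replicates 4 to 6. Scaling to total counts raised the median log2 fold change of all genes by 0.129 in AU-15330 against DMSO, 0.139 in the combination against DMSO, 0.073 in cisplatin against DMSO and 0.065 in the combination against cisplatin, and left 7 other mitotic genes lower in AU-15330 against DMSO.

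Members near 0 changed sign, and their causes were not tested. In the combination against cisplatin DESeq2 gave -0.023 for Bub1b, -0.0019 for Cenpe and -0.026 for Ube2c, DESeq2 size factors gave -0.023, -0.0020 and -0.026, and no filter gave -0.023, -0.0025 and -0.027. Fits of only the compared groups gave -0.017 for Bub1b and -0.021 for Ube2c there, and 0.00020 for Bub3 in AU-15330 against DMSO. Total-count scaling gave 0.012 for Plk1 and 0.053 for Prc1 in the combination against cisplatin, 0.13 for Bub3 in AU-15330 against DMSO, and for Pttg1 0.040 in cisplatin against DMSO and 0.013 in the combination against DMSO. Replicates 1 to 3 gave 0.033 for Bub3, -0.038 for Cenpa and -0.071 for Pttg1 in AU-15330 against DMSO, and 0.019 for Plk1, -0.088 for Ube2c and 0.096 for Mki67 in the combination against cisplatin. Replicates 4 to 6 gave -0.054 for Incenp in AU-15330 against DMSO, 0.059 for Pttg1 in the combination against DMSO, and in the combination against cisplatin -0.0036 for Ccna2, -0.072 for Bub1b, -0.14 for Cenpe, -0.032 for Ndc80, 0.079 for Pttg1, -0.14 for Espl1 and -0.16 for Foxm1. With 1 replicate left out, the combination against cisplatin ranged from -0.049 to 0.041 for Bub1b, -0.052 to 0.026 for Ube2c, -0.039 to 0.069 for Cenpe, -0.14 to 0.010 for Pttg1, -0.0048 to 0.12 for Ndc80 and -0.054 to 0.021 for Prc1. AU-15330 against DMSO ranged from -0.14 to 0.31 for Cenpa, -0.0073 to 0.43 for Kif23, -0.040 to 0.029 for Bub3 and -0.0065 to 0.15 for Pttg1, and cisplatin against DMSO from -0.17 to 0.054 for Pttg1.

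Same-numbered libraries deviated together with r above 0.1 in 23 of 36 pairs (mean 0.145, from -0.133 to 0.483). For replicate 1 the values ran from 0.217 to 0.483, and 10 of 24 libraries were closest to their own number. The labels do not name the numbers as a pairing, and the main fit holds no block for them. Whether same-numbered libraries share an origin was not tested. With the replicate block, 39 members were higher in cisplatin against DMSO, 34 in AU-15330 against DMSO and 9 in the combination against cisplatin, and 28 were negative in the interaction. Without it these counts were 39, 33, 7 and 23. With the block 56.8%, 77%, 71.8% and 41% of all tested genes were called in either direction.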
